A study of Mus musculus with 2 samples.

Results

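The endothelial cells around the early eye of the mouse embryo are the subject here. They were chosen by measured RNA from single cells of the ocular area at the 26-somite stage (E9.25). A cell was taken as a member when at least 3 of *Pecam1*, *Cdh5*, *Kdr*, *Emcn*, *Cd34*, *Tek* and *Cldn5* had a unique molecular identifier (UMI, the tag that marks 1 captured RNA molecule) and *Cdh5* or *Pecam1* was among them. Of 4084 cells that passed quality control (QC, between 1500 and 8000 genes, with no more than 5% of UMIs from mitochondria), 172 were members. The library labelled WT, from 1 wild-type embryo, held 68 members in 1680 QC cells, and the library labelled KO, from 1 *Mab21l1*-null embryo, held 104 in 2404. Both embryos were on the C57BL/6J background, both eye regions of each were dissociated with trypsin without a sort, and the cells entered the 10x Chromium 3′ system as 1 library per genotype. The study's question was about the lens-forming ectoderm, and how it differs when *Mab21l1*, a gene needed for lens formation, is lost. The endothelium came along in the dissection. With 1 embryo per genotype there was no replicate, so no test was made, and genotype, embryo and library cannot be told apart. Every interval given below is an exact 95% interval that covers counting error only.

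Endothelium lines every blood vessel, and in the embryo a first plexus of such cells forms around the optic vesicle before the lens invaginates. Vascular endothelial growth factor (VEGF) from surrounding tissue acts on receptors made by the endothelium, angiopoietins act on the Tie receptors, and Notch signals between neighbouring cells restrain sprouting and favour arterial fate. The nuclear receptor COUP-TFII, product of *Nr2f2*, favours venous fate. Transcription factors of the ETS and SOXF families drive many genes of the lineage, and ETS sites are common in their regulatory DNA.

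Upstream sequences of 4 genes that mark these cells are shown because they carry the ETS-type string CAGGAAG, or its reverse complement CTTCCTG, printed in capitals. Each sequence is the 250 bases before the gene's start on the + strand of GRCm38.p6, from RefSeq, written 5′ to 3′. *Emcn*, a sialomucin of capillary and venous endothelium, and *Cd34*, another sialomucin, belong to the rule. *Egfl7* encodes a secreted protein of the endothelial matrix and *Robo4* an endothelial guidance receptor. The windows are chr3:137340828-137341077 for *Emcn*, chr1:194938571-194938820 for *Cd34*, chr2:26580833-26581082 for *Egfl7* and chr9:37401722-37401971 for *Robo4*.
Emcn: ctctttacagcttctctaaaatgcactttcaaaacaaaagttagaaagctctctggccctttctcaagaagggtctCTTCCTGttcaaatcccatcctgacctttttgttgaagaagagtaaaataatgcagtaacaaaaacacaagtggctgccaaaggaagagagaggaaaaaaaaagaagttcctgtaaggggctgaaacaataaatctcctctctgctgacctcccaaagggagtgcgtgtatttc
Cd34: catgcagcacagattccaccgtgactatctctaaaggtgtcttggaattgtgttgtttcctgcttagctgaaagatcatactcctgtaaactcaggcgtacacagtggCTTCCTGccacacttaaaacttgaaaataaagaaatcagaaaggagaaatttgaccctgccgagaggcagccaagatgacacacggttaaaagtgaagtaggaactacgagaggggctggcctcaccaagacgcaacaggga
Egfl7: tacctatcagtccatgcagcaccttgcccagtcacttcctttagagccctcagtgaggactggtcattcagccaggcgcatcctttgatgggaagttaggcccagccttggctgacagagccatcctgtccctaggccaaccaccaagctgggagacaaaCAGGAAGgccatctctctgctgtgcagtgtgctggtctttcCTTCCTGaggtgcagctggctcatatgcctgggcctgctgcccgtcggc
Robo4: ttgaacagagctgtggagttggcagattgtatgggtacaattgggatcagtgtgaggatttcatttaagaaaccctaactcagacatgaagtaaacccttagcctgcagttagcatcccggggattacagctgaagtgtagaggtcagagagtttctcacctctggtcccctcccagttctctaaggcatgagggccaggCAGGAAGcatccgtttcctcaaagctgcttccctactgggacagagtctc
The string began 174 bases before the start of *Emcn*, 142 before *Cd34*, 50 before *Robo4*, and 90 and 49 before *Egfl7*. On either strand it lay in 8 of the 19 upstream windows found for 37 genes of the rule and a pan-endothelial list (42.1%), which were those of *Adgrf5*, *Calcrl*, *Cd34*, *Egfl7*, *Emcn*, *Rasip1*, *Rhoj* and *Robo4*. It lay in 2843 of 27025 such windows over all genes (10.5%). CCGGAAG, another ETS-type string, lay in 0 of the 19 against 7.05% of all windows, and AGGAAG, which is part of CAGGAAG, in 63.2% against 29.2% of all windows. GGAAGT lay in 36.8% against 20.0%, ACTTCCT in 21.1% against 7.80%, the SOX-type string AACAAT in 21.1% against 9.65%, and CACCC, a KLF-type string, in 57.9% against 51.3%. These 7 strings, each read on both strands, are all that were tried, CAGGAAG was picked for display after its shares were seen, and a match is a description of letters, not a site in use.

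Few cells lay near the threshold of 3 genes on its upper side. All 7 genes were detected in 52 of the 68 members of the library labelled WT and in 73 of the 104 of the library labelled KO, and 6 or 7 genes in 65 and 98. Just inside the threshold, with 3 to 5 genes, were 3 and 6 members, whose 7 genes together stood at 593 and 457 CPM (UMIs scaled to a total of 1000000). Just outside, with 2 genes including *Cdh5* or *Pecam1*, were 17 and 21 cells at 74.1 and 91.3 CPM, against 2852 and 2890 CPM in members with 6 or 7 genes. Per cell, the 7 genes had a median of 3 and 6 UMIs just inside and 2 and 2 just outside, against 75 and 64 in members with 6 or 7 genes. The summed level just inside thus rested mostly on a single member in the library labelled WT, and the edge was less sharp per cell than in the sum. A further 3 and 4 cells had at least 3 of the genes but neither *Cdh5* nor *Pecam1*, at 598 and 1593 CPM. A set of 6 other endothelial genes that the rule did not use (*Flt1*, *Ecscr*, *Esam*, *Tie1*, *Egfl7* and *Ramp2*) summed to 1523 CPM in those 4 cells of the library labelled KO, so the rule left out some cells with endothelial RNA.

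**Figure D1:**
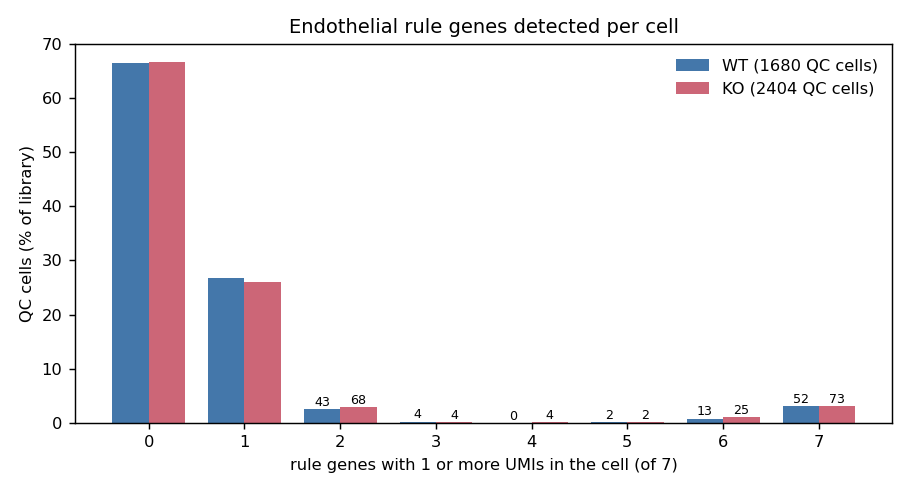
Number of the 7 rule genes detected per QC cell (horizontal axis) against the share of QC cells of each library in percent (vertical axis), with cell numbers over the bars from 2 genes upward. Most cells had 0 or 1 gene, 52 and 73 had all 7, 13 and 25 had 6, and at most 4 cells of a library had each of 3, 4 or 5.

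Members were 4.05% of QC cells (3.16 to 5.10) in the library labelled WT and 4.33% (3.55 to 5.22) in the library labelled KO, so the shares differed by less than their counting error. They held 2086402 and 2669399 UMIs, with a median of 26813.5 and 21137.5 per cell, against 20820 and 18036.5 in the other QC cells. Their median mitochondrial share was 3.58% and 3.60%, against 2.52% and 2.57% in the other cells. The libraries shared 15 barcode sequences, of which 0 belonged to members of both. Some members carried RNA of other cell types. In the libraries labelled WT and KO, 5 and 7 members met a gate for optic vesicle cells (both *Rax* and *Lhx2* detected), 3 and 2 a gate for mesenchyme, 2 and 0 a gate for macrophages, and 0 in each a gate for erythroid cells, ectoderm or neural crest. No doublet caller was run.

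The label fitted the markers. *Flt1*, which encodes a VEGF receptor that limits signalling, stood at 347 and 311 CPM in members of the libraries labelled WT and KO against 0.879 and 0.683 in the other QC cells. *Ecscr*, which encodes a surface protein of endothelium, stood at 285 and 324 CPM against 1.11 and 2.15. These 2 markers were not in the rule, and each had a UMI in at least 95.2% of members. The rule genes themselves stood high by construction: *Cldn5*, a tight junction protein, at 537 and 678 CPM, *Cdh5*, the VE-cadherin of endothelial junctions, at 446 and 366, *Pecam1*, another junction protein, at 168 and 167, and *Tek*, the Tie receptor for angiopoietins, at 71.9 and 87.3.
*Kdr*, the main signalling receptor for VEGF, had the lowest ratio of the rule genes over the pooled other cells, 32.2 and 27.0. It stood at 550 and 488 CPM in members, yet at 19.3 and 22.4 CPM in optic vesicle cells and 12.3 and 13.5 CPM in mesenchyme. *Cdh5* in the same optic vesicle cells stood at 0.405 and 0.543 CPM. *Cd34* stood at 48.2 and 51.2 CPM in macrophages, above any other rule gene there.

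**Figure D2:**
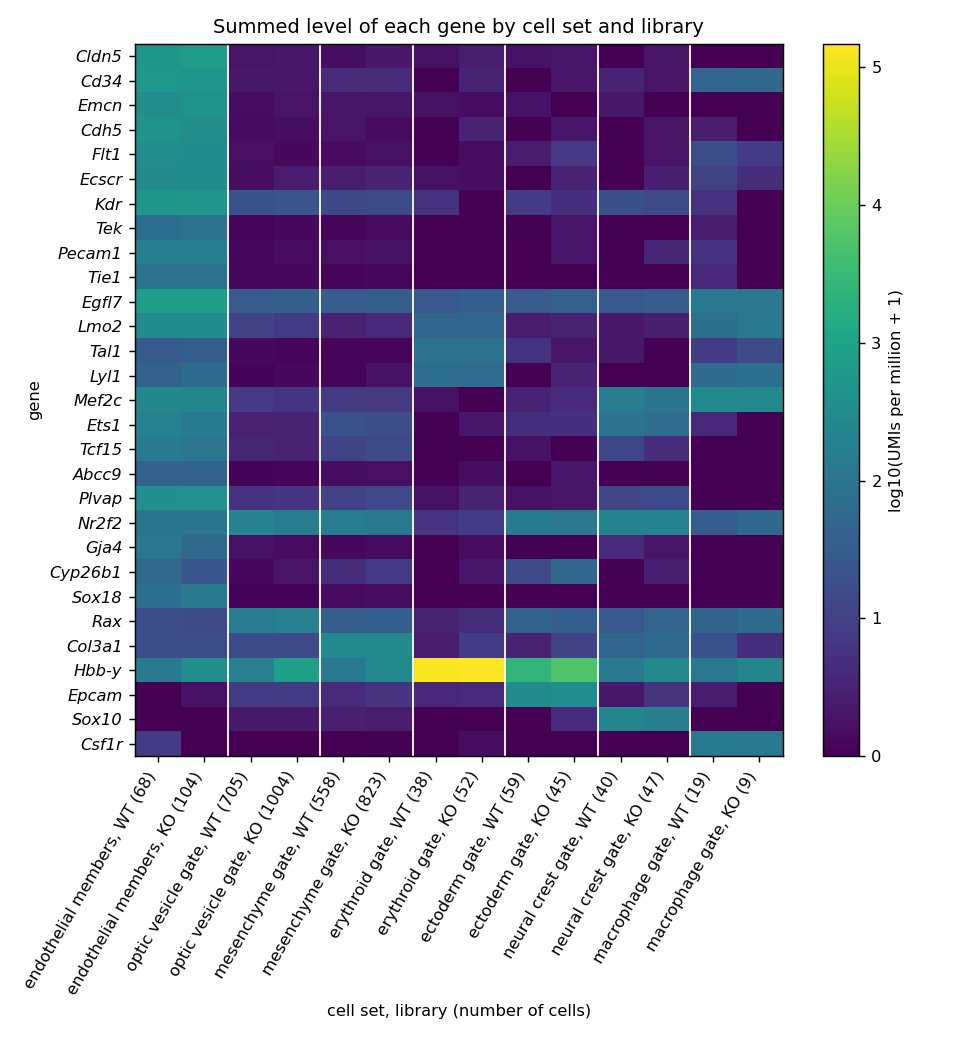
Summed level of 29 genes (rows) in endothelial members and in cells of 6 other gates, for each library (columns, with cell numbers), as log10 of CPM plus 1. The endothelial genes in the upper rows were high in members, with *Kdr* and *Egfl7* also seen at low levels elsewhere, and *Hbb-y* was highest in erythroid cells.

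Because the members were chosen by endothelial genes, the comparison with the other QC cells describes them and tests nothing. Over 12183 genes with at least 100 UMIs, 1372 stood 2-fold or more higher in members of the library labelled WT (11.3% of genes) and 1279 in that labelled KO (10.5%), while 2425 (19.9%) and 2312 (19%) stood 2-fold or more lower. In both libraries alike, 1097 were higher, 1844 lower and 243 higher by 10-fold or more. All 29 pan-endothelial genes that passed the filter, of 30 listed, were among those higher in both, with a median ratio of 112 and 117.

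Ranked by the lower of the ratios in the libraries, the first 15 genes outside the rule were *Myct1*, *Ptprb*, *Cd93*, *Aplnr*, *Clec1b*, *Pcdh12*, *Ctla2a*, *Gimap5*, *Adgrg3*, *Flt1*, *Fam167b*, *She*, *Col15a1*, *Mmrn1* and *Tmem255a*. *Aplnr* encodes the apelin receptor and had 574 and 765 UMIs in members of the libraries labelled WT and KO, against 4 and 25 in all other QC cells. *Ptprb*, a phosphatase that acts on VE-cadherin and Tie2, had 84 and 101 UMIs against 2 and 3. *Pcdh12*, an endothelial protocadherin, had 88 and 104 UMIs against 0 and 4. Of all *Pcdh12* UMIs in QC cells, nearly every one thus lay in a member.
*Clec1b*, best known as the podoplanin receptor of platelets, was detected in 94.1% and 94.2% of members, at 287 and 325 CPM against 0.578 and 0.603 in the other cells. Its detection in nearly every member differs from that of *Pf4*, a platelet gene described below, which had a UMI in 1.47% and 4.81% of members. *Col15a1*, a collagen of the basement membrane zone, stood at 147 and 129 CPM against 0.276 and 0.362.

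Transcription factors of the lineage were high in members. Of 21 endothelial factors past the filter, 19 stood 2-fold or more higher in members of both libraries and 1 lower, with a median ratio of 21.8 and 23.8. *Sox17*, of the SOXF family, had 82.9 and 70.0 CPM in members of the libraries labelled WT and KO, against 0.251 and 0.241 in other cells. Among ETS factors, *Erg* stood at 63.3 and 61.1 CPM against 0.251 and 0.663, while *Fli1* was only 8.76 and 8.29 times higher.
Some factors were shared with blood cells. *Tal1*, a helix-loop-helix factor of blood and vessel formation, stood at 28.8 and 33.0 CPM in members and at 84.7 and 84.0 in erythroid cells. *Lmo2*, its partner, stood at 315 and 324 CPM in members, 46.7 and 47.3 in erythroid cells and 81.8 and 121 in macrophages. *Mef2c* was as high in macrophages (301 and 278 CPM) as in members (254 and 225). *Foxc2*, which was listed for its role in vessels, was the factor that stood lower in members, at 0.326 and 0.213 times the other cells.

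Members carried the receptors of the VEGF and angiopoietin systems at high levels, and most of the ligands at levels below or near those of the other cells. *Flt4*, the receptor for VEGF-C, stood at 146 and 141 CPM, 264 and 180 times the level in other cells. *Tie1* stood at 90.6 and 85.4 CPM. *Vegfa* had 5 UMIs in members of each library, at 0.392 and 0.329 times the level in other cells, and *Angpt1*, the activating ligand of Tie2, had 1 and 2. *Vegfb* stood at 18.7 and 13.5 CPM against 38.7 and 34.5 in the other cells. *Vegfc* stood at 10.1 and 12.4 CPM against 7.72 and 8.66. *Angpt2*, which can oppose *Angpt1* and is made by endothelium, stood higher in members, at 2.88 and 4.50 CPM against 1.73 and 1.59, from 6 and 12 UMIs. Of 15 genes tested in this group, 9 were 2-fold or more higher in both libraries and 4 lower.

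Matrix genes of the vessel wall were high and fibrillar collagens low. Of 18 basement membrane and matrix genes tested, 14 stood 2-fold or more higher in both libraries. *Col4a1*, a chain of type IV collagen, stood at 416 and 437 CPM against 32.4 and 39.1, and *Hspg2*, which encodes perlecan, at 232 and 225 against 12.2 and 13.1. *Lama4*, the laminin chain typical of endothelium, was 27.09 and 25.01 times higher. The 3 that stood lower were *Col3a1*, *Col1a2* and *Col1a1*, and *Col1a1* had 0 UMIs in members.

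Genes of brain barrier endothelium were mixed at this stage. *Slc2a1*, the glucose transporter of barrier vessels, stood at 212 and 190 CPM, 1.999 and 2.071 times the other cells. *Mfsd2a*, a lipid transporter of mature barrier vessels, had 3 and 0 UMIs in members and *Ocln*, a tight junction gene, 0 in both. A count of 3 in members equals 1.44 and 1.12 CPM, the level below which absence cannot be told from low expression. *Plvap*, the diaphragm protein of leaky capillaries, stood at 394 and 411 CPM and was detected in 97.1% and 98.1% of members. Of 18 barrier genes tested, 5 were 2-fold or more higher in both libraries, among them *Adgra2* and *Fzd4*, parts of a Wnt receptor pathway, and 3 were lower.

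Most genes that define mural cells were at or near 0. *Rgs5*, *Acta2*, *Kcnj8*, *Myh11* and *Cnn1* had 0 UMIs in members, and *Pdgfrb*, the receptor that recruits pericytes, had 5 and 1. *Abcc9*, a subunit of a potassium channel that marks pericytes in the adult brain, instead stood at 43.6 and 44.2 CPM in members against 0.276 and 0.342 in the other cells, and was detected in 55.9% and 53.9% of members. *Pdgfb*, the pericyte attractant made by endothelium, stood at 54.6 and 35.6 CPM against 0.276 and 0.301.

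Another lineage marker sat in the endothelium as well. *Tcf15*, a helix-loop-helix factor listed with mesenchyme for its role in somites, stood at 131 and 104 CPM in members and at 10.1 and 12.6 CPM in mesenchyme cells. The rest of that list was low: 12 of 14 mesenchyme genes stood 2-fold or more lower in both libraries, *Foxc1* was close to even (1.13 and 1.17), and *Twist1*, a defining gene, had 2.40 and 4.12 CPM. All 12 optic vesicle genes, all 12 erythroid genes and all 6 ectoderm genes tested were 2-fold or more lower in members of both libraries. *Sox10* and *Foxd3*, which define neural crest, and *Cdh1*, which defines ectoderm, had 0 UMIs.

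Lists of glycolysis and of the cell cycle had median ratios over the other cells below that of all genes tested. The median ratio was 0.763 and 0.744 over 21 glycolysis and hypoxia genes, with *Gapdh*, a glycolytic enzyme, at 0.435 and 0.467. It was 0.797 and 0.806 over 42 genes of S phase and 0.864 and 0.869 over 54 genes of G2 and mitosis, against 0.908 and 0.904 over all genes tested. Of the 21 glycolysis and hypoxia genes, 2 stood 2-fold or more higher in both libraries and 2 lower, *Gapdh* among the latter. For S phase these counts were 0 and 1, and for G2 and mitosis 0 and 2. Over all 12183 genes tested they were 1097 and 1844. Genes induced early by stress and dissociation were high in part: 7 of 12 stood 2-fold or more higher in both libraries, among them *Atf3* (21.3 and 16.9 times) and *Junb* (12.6 and 10.7 times), both transcription factors. The part of dissociation in this was not tested.

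**Figure D3:**
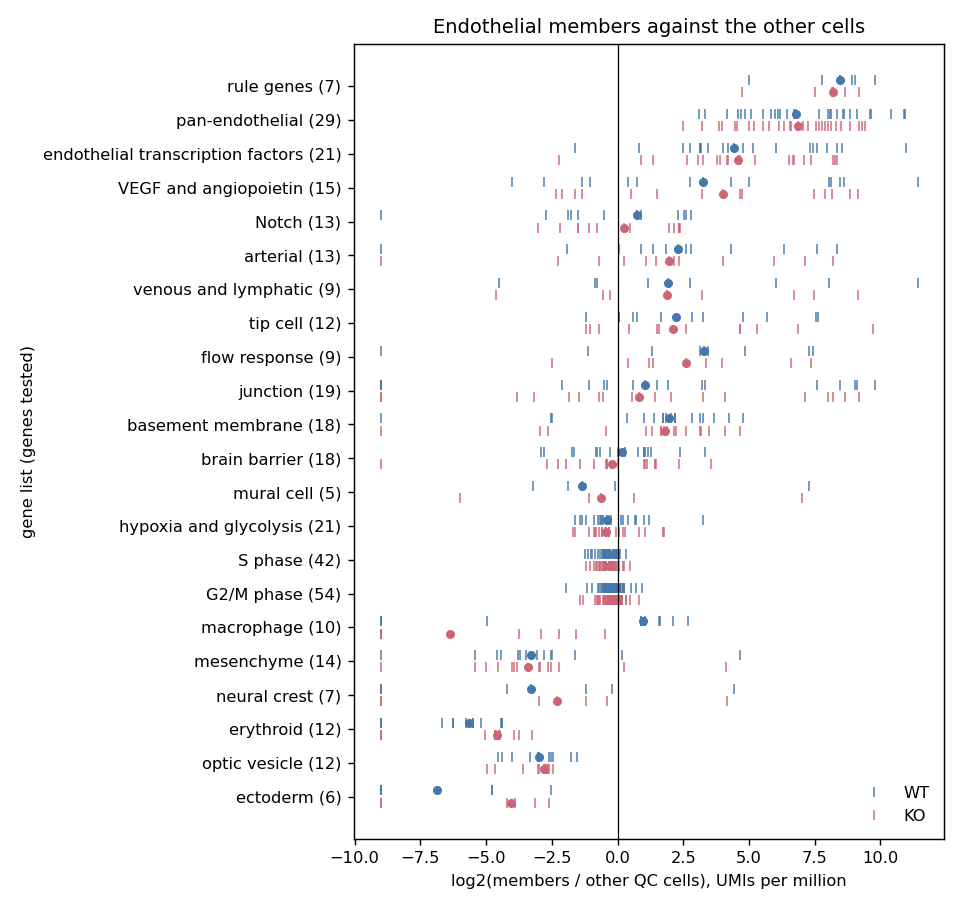
Level in endothelial members over the level in the other QC cells, as log2 of the CPM ratio (horizontal axis), for genes of 22 lists (rows, with genes tested). Ticks are genes and circles list medians, in blue for the library labelled WT and red for that labelled KO, and the lowest ratios, zeros included, are drawn together at the leftmost tick position. The medians of the rule, pan-endothelial and endothelial transcription factor lists lie to the right of 0, that of the brain barrier list lies right for WT and left for KO, and those of erythroid, optic vesicle and ectoderm lists to the left.

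Genes of arterial and of venous endothelium were each found in a share of the members. To count them, each member was thinned to 10000 UMIs, which left out 1 and 4 shallower members. *Aplnr*, an early venous and plexus gene, was then detected in 82.1% of 67 members of the library labelled WT and in 81.0% of 100 of that labelled KO. *Nr2f2* was detected in 55.2% and 44.0%, and *Gja4*, the connexin of arterial endothelium, in 22.4% and 15%. *Gja4* was rare elsewhere: it had a UMI in 0.717% and 0.729% of mesenchyme cells, whose median depth was 20183.5 and 16460 UMIs. *Nr2f2* was not: after the same thinning it was detected in 72.1% and 63.7% of mesenchyme cells, more than in members, so it does not mark endothelium in this tissue.
Pairs of arterial and venous genes differed in how often they met in a cell. Of the 15 members of the library labelled WT with *Gja4*, 3 also had *Nr2f2*, against 34 of the 52 without *Gja4*. In the library labelled KO this was 1 of 15, against 43 of 85. *Hey1*, a Notch target of arteries, and *Nr2f2* met in 3 and 0 members, but *Hey1* was also detected in 14.9% and 13.0% of mesenchyme cells against 16.4% and 14.0% of members. Other pairs met in as many cells or more. *Gja4* and *Aplnr* met in 9 and 8 of the 15 members with *Gja4*, against 46 of 52 and 73 of 85 without it that had *Aplnr*. *Sox17* and *Nr2f2* met in 18 of 37 and 13 of 41 members with *Sox17*, against 19 of 30 and 31 of 59 without it that had *Nr2f2*. *Dll4*, an arterial Notch ligand, and *Nr2f2* met in 3 of 9 and 5 of 15 members with *Dll4*, against 34 of 58 and 39 of 85 without it. *Aplnr* was found in 5 of 9 and 9 of 15 members with *Dll4*, against 50 of 58 and 72 of 85 without it. With *Unc5b*, a netrin receptor, *Aplnr* was found in 11 of 19 and 11 of 19 members, against 44 of 48 and 70 of 81 without. The venous gene was less frequent with the arterial gene in both libraries in these pairs, but not in every pair. *Ephb4*, a venous receptor, was found in 12 of 22 and 18 of 33 members with *Efnb2*, its arterial ligand, against 24 of 45 and 33 of 67 without it. *Aplnr* was found in 31 of 37 members with *Sox17* in the library labelled WT, against 24 of 30 without it, and in 30 of 41 against 51 of 59 in that labelled KO. *Sox17*, a SOXF factor of arterial endothelium, was found in 12 of 15 and 10 of 15 of the members with *Gja4*, and in 25 of 52 and 31 of 85 of those without. These counts describe cells of 2 embryos, and cells of an embryo are not replicates.
Genes linked to lymphatic endothelium split. *Flt4* was high, as given above, and so were *Stab1*, a scavenger receptor, with 178 and 267 UMIs in 79.4% and 79.8% of members, and *Mmrn1*, which encodes multimerin, at 40.3 and 56.6 CPM. *Prox1*, the factor that sets lymphatic identity, had 4 and 9 UMIs, *Lyve1*, a hyaluronan receptor, 1 and 0, and *Pdpn*, which encodes podoplanin, 1 and 1.

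Between the libraries, 0 of 29 pan-endothelial genes passed 1.5-fold in either direction, with a median ratio of 0.981. None of them was in the rule, but members of both libraries were chosen by genes of the same lineage. Over 5347 genes with at least 100 UMIs in members of both libraries together, the median ratio of the library labelled KO over that labelled WT was 1.005. Of these, 50 stood 1.5-fold or more higher (0.935% of genes) and 96 lower (1.8%). The same genes in the other QC cells gave 39 higher and 38 lower, from more UMIs per gene than members had. The 7 rule genes chose the members in both libraries, so their ratios only describe them. *Cldn5* stood at a ratio of 1.26 (1.17 to 1.36), *Emcn* at 1.24 (1.13 to 1.36) and *Cdh5* at 0.819 (0.748 to 0.897), beyond counting error but with no replicate to set the spread between embryos.

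*Mab21l1* itself was scarce in members, with 5 UMIs (2.40 CPM) in the library labelled WT and 19 (7.12 CPM) in that labelled KO. Its level in the other QC cells was 21.2 and 33.9 CPM, so over these pooled cells *Mab21l1* ran against the labels. In ectoderm cells, 59 and 45 in number, *Mab21l1* ran with them, with 104 and 38 UMIs, a ratio of 0.488 (0.327 to 0.713). Of genes the study named as lower in null lens ectoderm, from these same libraries, *Cbln2* had 53 and 0 UMIs in ectoderm cells, *Pitx3* 50 and 4, and *Cngb3* 42 and 4. RNA of *Mab21l1* was thus counted in both libraries, and members held too little of it to check a label. *Mab21l2*, its close relative, had 41 and 52 UMIs in members, a ratio of 0.991 (0.646 to 1.53).

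Transcription factors of the SOXF family lay on opposite sides. *Sox18* (chr2:181669836-181671640, minus strand, GRCm38) had 157 UMIs in 69.1% of members of the library labelled WT and 312 in 90.4% of that labelled KO. Its level was 75.3 and 117 CPM, a ratio of 1.55 (1.28 to 1.89), and 1.92 when each member was weighted equally. *Sox7* had 105 and 87 UMIs, a ratio of 0.648 (0.482 to 0.869), and *Sox17*, between them, 173 and 187, a ratio of 0.845 (0.683 to 1.04).
The interval of *Sox17* includes no difference, while those of *Sox18* and *Sox7* do not overlap. *Lyl1*, a helix-loop-helix factor related to *Tal1*, had 89 and 174 UMIs, a ratio of 1.53 (1.18 to 1.996), and 1.43 with equal weights. *Ets1* had 412 and 371 UMIs, a ratio of 0.704 (0.610 to 0.812). *Etv2*, the ETS factor that starts endothelial and blood fate, had 7 and 42 UMIs in 10.3% and 15.4% of members, too few for the filter, and 57.1% of the UMIs in the library labelled KO lay in 1 member. Of 18 factors tested, 2 were called higher and 1 lower, with a median of 0.984, where 0.935% of all genes were called higher and 1.8% lower.

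Arterial genes were lower in the library labelled KO in summed UMIs, and less so with each member weighted equally or thinned to the same depth. *Gja4* (chr4:127311421-127314039, minus strand, GRCm38) had 225 UMIs (108 CPM, 94.2 to 123) in the library labelled WT and 158 (59.2 CPM, 50.3 to 69.2) in that labelled KO, a ratio of 0.549 (0.445 to 0.676). A single member held 22.7% and 20.3% of those UMIs. *Unc5b*, a netrin receptor of arteries and tip cells, had a ratio of 0.615 (0.466 to 0.810) and *Notch4*, an endothelial Notch receptor, 0.650 (0.476 to 0.885). All 10 arterial genes past the filter, of 18 listed, lay below 1, with a median of 0.809 and 3 called lower. Among all genes tested, 48.6% lay below 1 and 1.8% were called lower.
*Dll4*, the arterial Notch ligand, did not pass the filter, and its 31 and 46 UMIs gave a ratio of 1.16 (0.720 to 1.89). With each member weighted equally, the ratio of *Gja4* was 0.842, 8 of the 10 lay below 1, 0 were called and the median was 0.880. After thinning to 10000 UMIs, 5 of the 10 lay below 1 and the median was 1.01, with *Gja4* at 0.804. Thinning also gives members equal weight, but keeps fewer UMIs in 1 random draw, whose noise was not measured. The depth of members with an arterial gene varied by gene. Those with *Gja4* had a median of 30241 UMIs against 26813.5 in members without it in the library labelled WT, and 17153 against 21699 in that labelled KO. For *Hey1* these medians were 23388 against 26875, and 18174.5 against 22340. Those with *Unc5b* had a median of 40108 UMIs against 24505.5 in members without it in the library labelled WT, and 17083 against 22469 in that labelled KO. The part of cell depth in the arterial ratios was not tested.
The venous and lymphatic list lay the other way in the sum, with 5 of 7 genes above 1, 0 called and a median of 1.04, but the median was 0.941 with equal weights and 0.919 after thinning. *Nr2f2* in particular had a ratio of 0.934 (0.776 to 1.12) in the sum and 0.656 with equal weights.

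**Figure D4:**
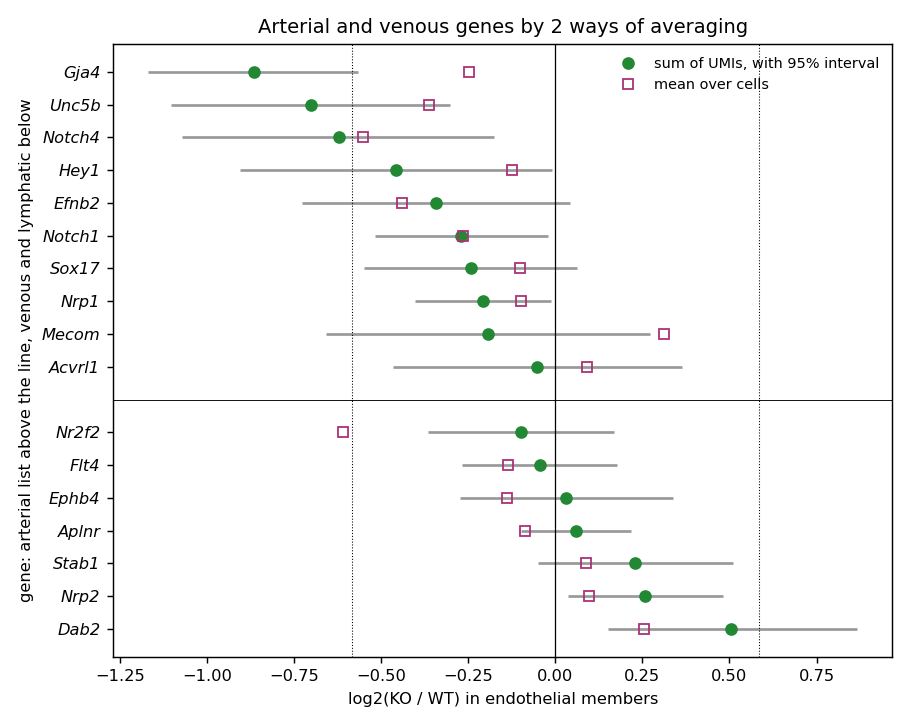
Ratio of the library labelled KO over that labelled WT in endothelial members, as log2 (horizontal axis), for 10 arterial genes above the line and 7 venous and lymphatic genes below it. Filled circles with bars are ratios of summed UMIs with their 95% intervals, open squares are ratios of the mean over cells, and dotted lines mark 1.5-fold. All 10 arterial circles lie left of 0, but 2 of the squares do not, and the median after thinning was 1.01.

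Notch and flow genes lay below 1 in summed UMIs as well, and the Notch and arterial lists share *Notch1* and *Notch4*. All 7 Notch pathway genes tested lay below 1, with a median of 0.766 and *Notch4* as the gene called, while 7 of 7 lay below 1 with equal weights and 6 of 7 after thinning. The same genes had a median of 0.945 in the other QC cells, while UMIs summed over the whole list of 16 gave 0.815 in members and 0.820 in the other cells. Under the filter, *Notch3* had 16 and 38 UMIs, a ratio of 1.86 (1.01 to 3.57), and *Dll1*, a Notch ligand, 4 and 19. *Hes1*, a Notch target, had a ratio of 0.766 (0.625 to 0.939) in members and 0.764 in the other cells.
Of the genes that answer to blood flow, *Klf2* had 361 and 308 UMIs, a ratio of 0.667 (0.571 to 0.778) just short of the fold, and 0.738 with equal weights. *Cavin1*, a coat protein of caveolae, was called lower, with 154 and 126 UMIs in 75% and 51.9% of members, a ratio of 0.639 (0.501 to 0.815), and 0.646 with equal weights. All 5 flow genes tested lay below 1, with a median of 0.733. In the 1 draw of thinned members 2 of 5 did, with a median of 1.07. *Nos3*, the endothelial nitric oxide synthase, had a ratio of 0.733 (0.506 to 1.06), which includes no difference.

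Of 8 genes of sprouting tip cells tested, 2 were called lower, *Unc5b* and *Pdgfb* (0.651, 0.491 to 0.863), and 0 higher. Over all genes tested, 1.8% were called lower and 0.935% higher, and *Unc5b* is also among the arterial calls. *Apln*, the ligand made by tip cells, had too few UMIs for the filter, 16 in 14.7% of members of the library labelled WT and 64 in 29.8% of that labelled KO, a ratio of 3.13 (1.79 to 5.79). Its receptor gene *Aplnr* was even, at 1.04 (0.934 to 1.16). *Adm*, which encodes adrenomedullin, had 9 and 32 UMIs, a ratio of 2.78 (1.296 to 6.62), with 37.5% of the latter in 1 member. *Tgfbr2*, a receptor for TGF-beta, had 111 and 88 UMIs, a ratio of 0.620 (0.463 to 0.827), and was the gene called among 15 of the BMP and TGF-beta pathways, where *Eng*, an endothelial co-receptor, had 0.877 (0.772 to 0.997). Receptors of the VEGF and angiopoietin systems gave 0 calls among 8 genes, with *Flt1* at 0.895 (0.809 to 0.990) and *Tek* at 1.21 (0.985 to 1.501). Basement membrane genes gave 0 calls among 14, with a median of 0.977, S phase genes 0 among 37, with a median of 0.968, and genes of G2 and mitosis 1 in each direction among 49, with a median of 0.997.

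*Cyp26b1*, the enzyme that clears retinoic acid, a signal made in the early eye, was lower in members and higher in the other cells. It had 128 UMIs in 54.4% of members (61.4 CPM, 51.2 to 72.9) of the library labelled WT and 61 in 33.7% (22.9 CPM, 17.5 to 29.4) of that labelled KO. The ratio was 0.373 (0.270 to 0.509), 0.428 with equal weights and 0.591 after thinning. In the other QC cells it was 1.73 (1.29 to 2.33), where ectoderm cells stood at 13.1 and 49.3 CPM and mesenchyme at 3.67 and 6.44.

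A set of genes was lower in the library labelled KO in members and in the rest of the tissue alike. *Actb*, cytoplasmic actin, had 11807 and 6925 UMIs in members, a ratio of 0.458 (0.445 to 0.472), and 0.578 in the other QC cells. *Slc39a1*, a zinc transporter, had ratios of 0.346 and 0.493, *Rpgrip1*, a ciliary gene, 0.413 and 0.453, and *Cbx3*, a heterochromatin protein, 0.573 and 0.613. *Sept10*, a septin, and *Insig1*, a regulator of sterol synthesis, were further genes of this kind, with ratios of 0.456 and 0.469 in members and 0.639 and 0.698 elsewhere.
*Rps27rt* stood at 0.588 and 0.654, but it is a near-identical copy of *Rps27*, so its reads may be split. Of the 96 genes called lower in members, 76 lay below 1 in the other cells too and 16 were 1.5-fold or more lower there. Of the 50 called higher, 34 lay above 1 in the other cells and 2 passed 1.5-fold. Over all 5347 genes tested, the median ratio in the other cells was 1.0002, with 39 genes 1.5-fold or more higher there and 38 lower.
A list of 32 genes, picked as lower in *Mab21l1*-null lens ectoderm, was read in members as well. Of these, 20 were tested in members, 3 were called lower (*Srsf2*, *Ptms* and *Pax6*) and 0 higher, with a median of 0.856 in members and 0.905 in the other cells. The share called lower in members over all genes tested was 1.8%. *Srsf2*, a splicing factor, had 0.649 in members and 0.560 elsewhere. *Pax6*, which was detected in 13.2% and 13.5% of members, stood at 279 and 238 CPM in optic vesicle cells, and a single member held 37.5% and 28.3% of its UMIs in members. Since that list comes from these same libraries, it is not independent evidence.

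Other genes higher in members of the library labelled KO were of varied kind. *Dnmt3a*, a DNA methyltransferase, had 54 and 122 UMIs, a ratio of 1.77 (1.27 to 2.48), against 1.04 in the other cells. *Cstf1*, a factor of RNA 3′ end formation, had 28 and 76 UMIs, a ratio of 2.12 (1.36 to 3.40), and *Dhx29*, a helicase of translation initiation, 41 and 94, a ratio of 1.79 (1.23 to 2.65). *Gm266*, a predicted gene that was itself 7.57 and 10.95 times higher in members than in other cells, had 71 and 168 UMIs, a ratio of 1.85 (1.39 to 2.48). These were spread over members, with at most 11.1% of the UMIs of a library from a single cell. *Trpm1*, a channel of retina and pigment cells, had 23 and 86 UMIs, a ratio of 2.92, but 1.25 without the members that met the optic vesicle, macrophage, ectoderm or erythroid gate, and optic vesicle cells stood at 155 and 166 CPM.

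**Figure D5:**
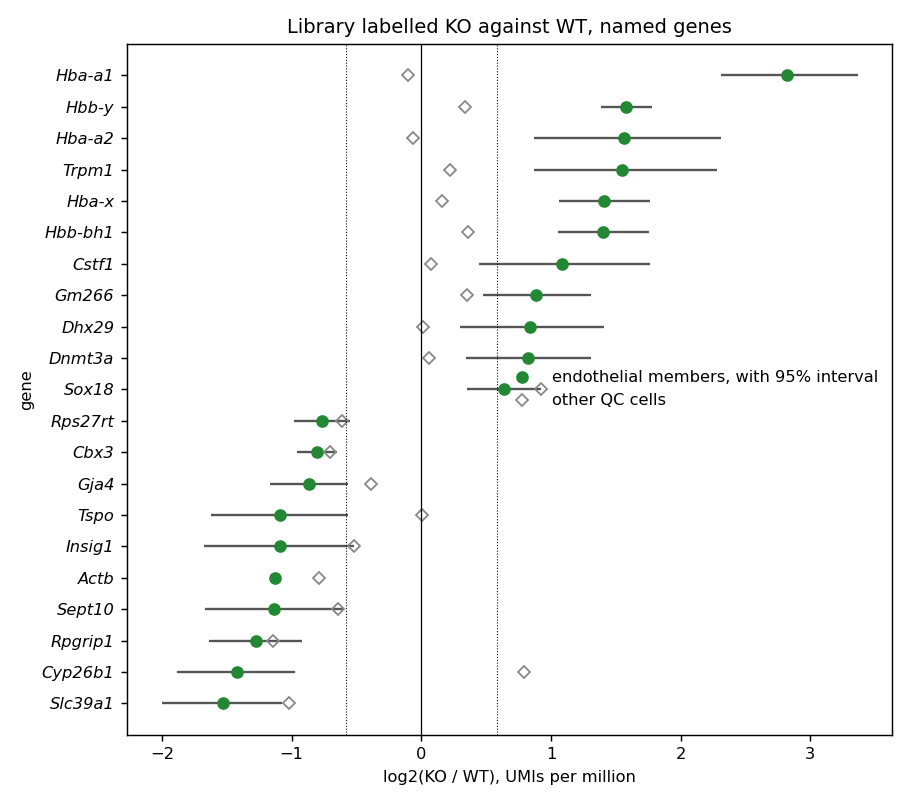
Ratio of the library labelled KO over that labelled WT, as log2 (horizontal axis), for 21 genes selected for the highest lower bounds and lowest upper bounds in endothelial members. Green circles with bars are members with 95% intervals, open diamonds are the other QC cells, and dotted lines mark 1.5-fold. *Actb*, *Slc39a1*, *Rpgrip1* and *Cbx3* lie left in both, while *Cyp26b1* lies on opposite sides.

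Some of the largest ratios were those of globin genes or of genes with most UMIs in a single cell. *Pf4*, a platelet chemokine, had 1 UMI in members of the library labelled WT and 181 in that labelled KO, of which 177 (97.8%) lay in 1 member. That member had all 7 rule genes, 201 pan-endothelial UMIs, 7 of the 9 UMIs of the platelet gene *Gp1bb*, 195 UMIs of *Hba-a1* and 194 of *Hbb-y*. In the library labelled WT, 1 member with 3 rule genes and 17 pan-endothelial UMIs had 309 UMIs of 12 macrophage genes. It held all 109 UMIs of *Plac8* and 120 of the 123 of *Coro1a*, both leukocyte genes, as well as 37 of the 83 of *Tspo*, a protein of the outer mitochondrial membrane.
Over all members the macrophage list summed to 156 CPM for WT and 8.62 CPM for KO as labelled. *Fcer1g* was its most abundant gene in members, 2 of the 12 genes (*C1qa* and *C1qc*) had 0 UMIs in both, and *Csf1r*, a defining gene, had 15 and 0. Without the members that met the macrophage gate, *Plac8* had no UMI left in the library labelled WT and *Coro1a* had a ratio of 0.752, while 64 genes were called higher and 98 lower.
Embryonic globin RNA was low in members and differed between the libraries. The 12 erythroid genes summed to 244 and 767 CPM in members, against 11610 and 13610 in the other QC cells, and *Hbb-y*, their most abundant gene, had 265 and 1014 UMIs, a ratio of 2.99 (2.61 to 3.44). *Hbb-y* in optic vesicle cells stood at 180 and 825 CPM. *Hba-a1* had 35 and 316 UMIs, of which 61.7% of the latter lay in the member with *Pf4*, and it is a near-identical copy of *Hba-a2*, so that reads between them may be split. A member held a median of 2 erythroid UMIs of 10000 in the library labelled WT and 4.5 in that labelled KO. The part of free RNA from blood cells in these ratios was not tested.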

How the data were processed

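Single-cell RNA was measured in 1 library per genotype. Per the labels and the study's methods, the authors aligned reads to mm10/GRCm38, counted UMIs with Cell Ranger and combined the libraries with its aggregation step, which can subsample reads. The deposited values are whole-number UMI counts per gene and barcode, unscaled, over 27998 identifiers, in 4203 barcodes with 43636657 and 53148253 UMIs (libraries labelled WT and KO). The mitochondrial limit of 5% and the limits of 1500 and 8000 genes left 4084 cells.

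The members and gene lists were chosen with earlier results of these data known. UMIs were summed over members and over other QC cells and divided by the summed total (CPM). Genes with at least 100 UMIs were compared, and a call was a ratio past 2-fold against other cells or 1.5-fold between libraries. Intervals were exact (Poisson for levels, Clopper-Pearson for shares, conditional binomial for ratios). Equal weights means the mean of per-cell values. Thinning drew 10000 UMIs per cell (seed 1). Named genes were the rule genes and given markers, the 15 highest ratios against other cells, the 12 highest lower and 12 lowest upper bounds between libraries, extremes and most abundant genes of each list, genes of a list whose role is described, and *Mab21l1* and *Mab21l2*. Any other gene, *Gp1bb* among them, was chosen after its values were seen. Other gates, filters, folds, scalings and weightings were tried. The scripts, tested on simulated data, ran on Python 3.11.15 with pandas 2.3.3, numpy 2.4.6 and scipy 1.17.1, and figures were drawn with matplotlib 3.10.9. Promoter sequences came from RefSeq (GRCm38.p6) and gene positions from GENCODE vM21.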

Additional observations from a re-analysis of the deposited data

Results flagged for a closer look

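Among barcodes that failed QC, 8 of 65 (12.3%) from the WT-labelled library and 13 of 54 (24.1%) from the KO-labelled one met the endothelial rule, and none of them entered the comparisons. Of 75 named genes compared between the libraries, 8 had 95% intervals on opposite sides of 1 in members and in the other QC cells. The 75 include genes picked for extreme bounds between the libraries in members, so 8 of 75 is not a rate over all genes. The difference between members and other cells was not tested. The ratio of *Pf4* was 141.5 in members and 0.210 in the other cells, with 177 of 181 UMIs in 1 member. The ratio of *Hba-a1* was 7.06 in members and 0.930 in the other cells. It was 2.96 in members when the member of each library with the most *Hba-a1* UMIs was left out. The ratio of *Hba-a2* was 2.95 in members and 0.959 in the other cells. The ratio of *Cyp26b1* was 0.373 in members and 1.73 in the other cells. *Unc5b* had 0.615 in members and 1.07 elsewhere, and *Notch1* 0.829 and 1.13. *Nrp2*, a co-receptor for VEGF-C and semaphorins, had 1.196 and 0.876, and *Dab2*, an endocytic adaptor, 1.42 and 0.847. Of these 8, *Notch1*, *Nrp2* and *Dab2* did not pass 1.5-fold in members.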

How the results depend on the processing

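No paired analysis was possible because each genotype has 1 library. The share of members stayed within its interval under every gate tried, from 3.70% to 5.06% in the library labelled WT and from 3.87% to 5.20% in that labelled KO. Without a filter beyond detection in 3 cells, 2376 genes (WT) and 2245 (KO) stood 2-fold or more higher than in other cells, and 5747 and 5638 lower. Between libraries, calls higher and lower numbered 108 and 167 with equal weights, 205 and 268 at 50 UMIs, 1536 and 1477 with detection in 3 members as the filter, 8 and 9 at a fold of 2, and 325 and 303 after thinning. Filters of 50 UMIs or of detection alone admit more genes than the main filter, so those counts are not call rates. Without members that met the optic vesicle, macrophage, ectoderm or erythroid gate, 98 were higher and 121 lower. Of the 50 higher and 96 lower original calls, 35 and 60 were kept after thinning, 40 and 76 without those members, 8 and 9 at a fold of 2, and from 43 to 50 and from 77 to 96 under the other settings. Of 595 ratios of 75 named genes under other settings, 545 stayed within the main interval and 50 did not. On the other side of 1 lay 39 of the 595, 21 of them after thinning, and 0 of the 39 belonged to the 30 genes past 1.5-fold. Most of those 30 were named because their bounds lay far from 1, so this was close to fixed beforehand. Ratios of *Pf4* and *Plac8* that had no value under some settings are not among the 595. The cause of these differences was not tested. Thinning gave 2 higher calls and 1 lower among pan-endothelial genes. Depth limits genes under 100 UMIs.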
